A study of Mus musculus with 72 samples.

Results

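Ribosomal protein genes were read as promoters: the 81 protein-coding genes of GENCODE vM1 whose symbol begins with Rpl or Rps followed by a digit, without the S6 kinase genes and without pseudogenes, among 22359 protein-coding genes in all. Of the 81, 42 encode proteins of the large ribosomal subunit and 31 proteins of the small subunit. A further 7 are paralogs (Rpl3l, Rpl7l1, Rpl10l, Rpl22l1, Rpl36al, Rpl39l and Rps27l). The remaining gene, Rps19bp1, carries the prefix but encodes a protein that binds Rps19. A promoter was the stretch of 1000 bp on either side of each annotated transcript start of a gene, in mouse build mm9, and 43 of the genes had more than 1 start.

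ChIP-seq had been done with 16 antibodies in 3 cell types of C57BL/6 mice: mouse embryonic fibroblasts (MEFs), embryonic stem cells (ESCs) and resting B cells from the spleen. For each antibody the libraries were 2 replicates from wild type cells (WT, Hmgn1+/+n2+/+) and 2 from double knockout cells (DKO, Hmgn1-/-n2-/-), which lack both genes throughout, so the effects of the 2 losses cannot be told apart. The MEF antibodies were against H3K27ac, H3K27me3, histone H1, p300, Brd3 and CEBPB, those of ESCs against CTCF, NANOG, OCT4, SOX2 and Klf4, and those of resting B cells against IKAROS, ETS1, IRF8, PAX5 and OCT2. The deposited lists give peaks and no RNA levels, so nothing below measures transcription. A list also leaves out whatever lay under the threshold of the peak caller, so a promoter without a peak is not shown to be unbound.

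HMGN1 and HMGN2 are small proteins that bind nucleosomes without a preferred sequence and are found where H3K27ac, the acetylation of histone H3 that marks active promoters and enhancers, is high. Ribosomal protein genes are among the most strongly transcribed genes of almost every growing cell, they are scattered over the genome, and their products are needed in equal amounts. Most start at a cytosine within a run of pyrimidines (the terminal oligopyrimidine tract), which lets the cell control their translation together, and many of their promoters hold sites for ETS family factors, YY1 or Sp1. In these annotations the genes lay on 19 chromosomes, with the largest number, 13, on chromosome 7.

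The promoters below, from 200 bases before to 10 bases after the main start (that of the most annotated transcripts), are among those on which the results turn. Rpl18 and Rps19 were among the 3 ribosomal protein promoters with peaks of 7 antibodies in both WT libraries, the highest number among these genes in WT. The printed stretch of Rpl18 overlaps its Klf4 peaks, while its Brd3, CEBPB, NANOG and ETS1 peaks lie downstream of it, between positions 52972620 and 52974040 of chromosome 7, by another annotated start. Rps7 and Rps6 carried ETS1 peaks over an ETS motif, and Rps23 was the promoter with an ETS1 peak in the DKO libraries alone. Capitals mark 4 searched motifs on either strand: the ETS motif CCGGAAG, the YY1 motif GCCATCTT, the Sp1 motif GGGCGG and, close to the start on the gene's own strand, the pyrimidine run TTTCC or TTTTC. Sequences are read 5′ to 3′ along the gene from mm9: Rpl18 at chr7:52970627-52970836 on the plus strand, Rps19 at chr7:25669190-25669399 on the plus strand, Rps7 at chr12:29320809-29321018 on the minus strand, Rps6 at chr4:86503307-86503516 on the minus strand and Rps23 at chr13:91062527-91062736 on the plus strand.
Rpl18: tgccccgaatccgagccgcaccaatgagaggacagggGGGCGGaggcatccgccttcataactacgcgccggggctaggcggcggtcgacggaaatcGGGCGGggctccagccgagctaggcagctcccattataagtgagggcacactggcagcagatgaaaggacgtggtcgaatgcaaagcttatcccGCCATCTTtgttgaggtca
Rps19: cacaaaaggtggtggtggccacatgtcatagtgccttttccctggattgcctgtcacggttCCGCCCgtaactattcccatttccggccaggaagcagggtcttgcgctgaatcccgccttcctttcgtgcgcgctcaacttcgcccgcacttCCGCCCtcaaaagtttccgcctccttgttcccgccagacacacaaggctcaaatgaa
Rps7: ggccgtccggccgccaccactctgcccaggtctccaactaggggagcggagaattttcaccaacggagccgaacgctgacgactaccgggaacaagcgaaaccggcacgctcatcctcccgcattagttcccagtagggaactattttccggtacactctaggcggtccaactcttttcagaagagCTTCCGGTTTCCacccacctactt
Rps6: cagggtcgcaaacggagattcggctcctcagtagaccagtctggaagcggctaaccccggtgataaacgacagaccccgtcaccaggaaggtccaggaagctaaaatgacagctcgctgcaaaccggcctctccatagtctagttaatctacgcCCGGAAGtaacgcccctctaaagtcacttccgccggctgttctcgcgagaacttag
Rps23: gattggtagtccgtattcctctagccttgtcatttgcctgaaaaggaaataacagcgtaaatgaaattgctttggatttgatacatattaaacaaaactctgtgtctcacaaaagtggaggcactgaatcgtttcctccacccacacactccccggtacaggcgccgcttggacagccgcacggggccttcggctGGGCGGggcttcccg

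Counted from the first transcribed base as 0, Rps6 held 1 ETS motif at -46, and in Rps7 the same motif lay on the other strand at -14, directly followed by the pyrimidine run. Rpl18 held a YY1 motif just before the start and a pair of Sp1 motifs upstream, Rps19 a pair of Sp1 motifs on the other strand, and Rps23 an Sp1 motif that spans the start, beginning at -5. Over all 81 promoters, from 250 bases before to 50 after the main start, the ETS motif was in 21 (25.9%, against 10.8% of all 22359 genes), the YY1 motif in 6 (7.41% against 3.34%), the Sp1 motif in 39 (48.1% against 43.9%) and the pyrimidine run within 10 bases of the start in 6 (7.41% against 4.45%). Their median GC content was 55% against 55.3%. Annotated starts need not be the starts used in these cells, so the motif counts near the start describe the annotation.

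Every ribosomal protein promoter except those of 3 paralogs was acetylated in WT MEFs, nearly all carried Brd3, and factors of the other cells marked smaller and changing subsets. H3K27ac peaks were present at 78 of the 81 promoters in either WT library and at 79 in either DKO library, where 49.8% to 50.7% of all genes had such a peak. Brd3, a bromodomain protein that reads acetylated histones, was at 74 promoters in either WT library and at 67 and 68 in the DKO libraries, whereas its share of all genes went from 42.3% in either WT library to 20.6% and 25.7%. In ESCs, CTCF (the factor that organises chromatin loops) was at 28 promoters in either WT library and at 31 and 30 in DKO (20.4% and 21.6%, then 22.4% and 22.8% of all genes). In the same cells NANOG was at 16 and 26 promoters in WT and at 55 in either DKO library, while its share of all genes went from 17.4% and 20.1% to 30.9% and 31.0%. OCT4 was at 2 and 1 in WT and at 12 and 21 in DKO (3.20% and 3.89%, then 10% and 12.1% of all genes). Klf4 was at 7 and 4 in WT and at 9 and 11 in DKO (6.53% and 3.85%, then 5.65% and 6.88% of all genes), and SOX2 at no more than 4 in any library (1.73% to 3.63% of all genes). In resting B cells the direction was the opposite: IKAROS was at 30 and 41 promoters in WT and at 17 and 16 in DKO (14.1% and 16.9%, then 9.39% and 8.83% of all genes). ETS1 was at 27 and 31 in WT and at 7 and 11 in DKO (7.56% and 7.81%, then 1.78% and 1.70% of all genes). In MEFs CEBPB was at 7 in either WT library and at 2 and 3 in DKO (5.31% and 5.42%, then 1.80% and 1.97% of all genes). Most lists changed too. H3K27ac lists held 84850 and 84760 peaks in WT and 76968 and 77614 in DKO, and Brd3 lists 31404 and 33072 in WT and 8970 and 11549 in DKO. Klf4 lists, of 5545 and 4003 peaks in WT and 4859 and 5924 in DKO, overlapped in size. OCT4 lists held 11140 and 12627 peaks in WT and 26742 and 30864 in DKO, IKAROS lists 9102 and 10969 in WT and 5032 and 4838 in DKO, and ETS1 lists 4524 and 4561 in WT and 1220 and 1098 in DKO.

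**Figure D1:**
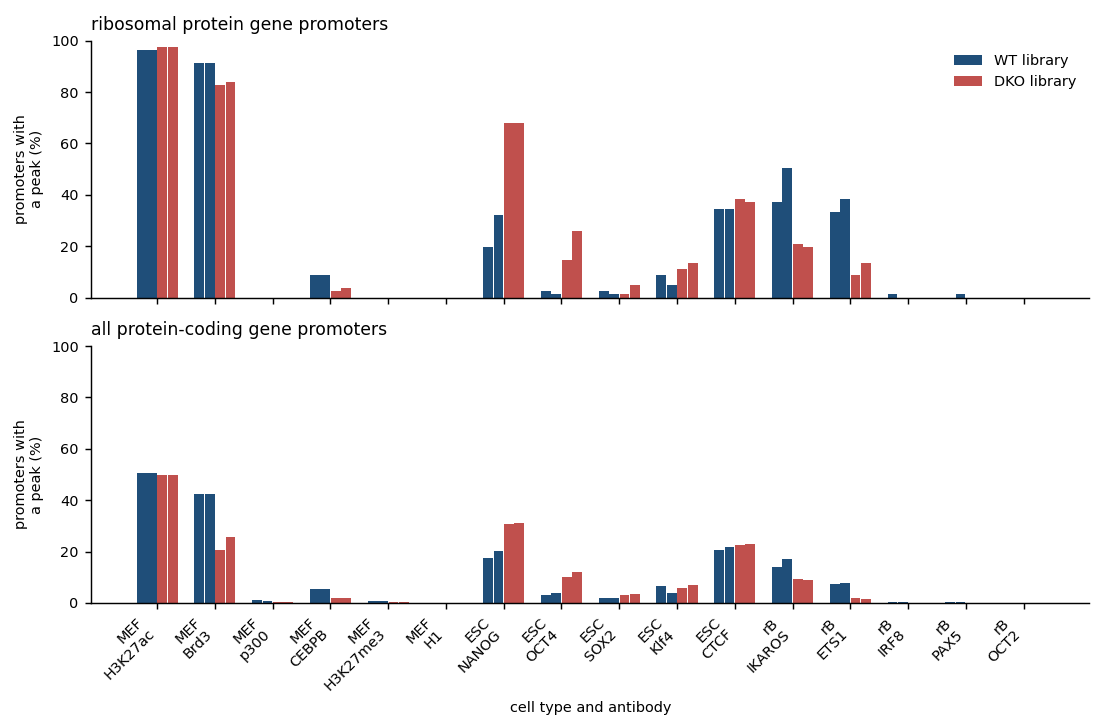
Bars give the percent of promoters with at least 1 peak in each library, from 0 to 100 on the vertical axis, by antibody and cell type (rB, resting B cells), with ribosomal protein genes above and all protein-coding genes below, and a bar for each of the 2 WT and the 2 DKO libraries. H3K27ac and Brd3 covered over 80% of the ribosomal protein promoters in every library, the shares of NANOG and OCT4 were higher in DKO, and those of IKAROS and ETS1 were lower.

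The other antibodies found almost none of them. No ribosomal protein promoter had a peak of p300, H3K27me3, histone H1 or OCT2 in any library, and these antibodies had peaks at no more than 1.29% of all promoters in any library. IRF8 gave a peak at Rpl13a in WT replicate 1 (fold enrichment 8.95) and PAX5 a peak at Rpl27 in WT replicate 2 (7.29), each in 1 library. Below, fold enrichment is the pileup of fragments at the summit over the background that the peak caller expected there, and a promoter takes the value of its strongest peak.

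Peaks at marker genes gave a partial check of the labelled cell types. In MEFs H3K27ac was at 6 of 6 fibroblast markers in all 4 libraries and, of the 6 stem cell markers, at Klf4 alone. NANOG was at 6, 5, 5 and 5 of 6 stem cell markers and IKAROS at 6, 6, 5 and 5 of 6 B cell markers, and neither was at any fibroblast marker. OCT4, SOX2 and Klf4 each were at no more than 4 stem cell markers in a library. ETS1 was at 3, 4, 1 and 1 of 6 B cell markers. T and myeloid cell markers had no IKAROS or ETS1 peak. Other markers of foreign cells did have peaks. The endothelial marker Pecam1 had IKAROS in all 4 libraries and ETS1 in both WT libraries. The stem cell marker Klf4 had IKAROS in both WT libraries. In all 4 libraries NANOG was at the myeloid marker Itgam, and H3K27ac of MEFs at Csf1r and at the B cell marker Ebf1. The lists do not hold read totals. A background solved from the peak values gave a lowest level per library of 1.64, 1.44, 1.77 and 1.87 for H3K27ac and of 1.75, 1.89, 1.24 and 1.54 for Brd3, in the order WT 1, WT 2, DKO 1, DKO 2, which is kept throughout. This level stands for depth, and the lists of CEBPB, NANOG and CTCF, among others, could not be solved, so that their depth is unknown.

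Brd3 was high at ribosomal protein promoters in WT MEFs and lower at many of them in DKO MEFs. The median fold enrichment at promoters with a peak was 17.8 and 17.6 in the WT libraries and 11.6 and 12.4 in the DKO libraries, against 7.06, 6.90, 6.52 and 6.23 over all genes with a peak. Of the 100 promoters with the highest Brd3 fold enrichment in each library, 26, 26, 28 and 30 were ribosomal protein promoters, where for H3K27ac the numbers were 1, 2, 3 and 2. A typical ribosomal protein promoter stood at percentile 98.0, 98.2, 96.0 and 96.9 among promoters with a Brd3 peak. These summits lay at a median of 116.5, 118, 110 and 119.5 bp from the nearest annotated start (positive values lie downstream and negative values upstream). In WT the promoter of Rpl26, a large subunit gene named for this after its values were seen, had the highest mean, with 29.6 and 33.5, although Rpl27 (31.0) and Rpl4 (30.1) were above it in WT replicate 1.

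Among the 65 of the 81 promoters with a Brd3 peak in all 4 libraries, 25 were lower and 0 higher in DKO by limma with Benjamini-Hochberg adjustment over all genes tested, where 24.6% of all 3930 genes tested were lower and 0.382% higher. Without adjustment, 35 were lower and 1 higher at a p under 0.05. Both DKO libraries were below both WT libraries at 45 of the 65, against 61.7% of all genes tested, and above them at 4, against 4.86%. The median log2 change was -0.56, and -0.42 over all genes. Of the tested large subunit genes 16 of 39 were lower, of the small subunit genes 7 of 22 and of the paralogs 2 of 4. With 2 libraries a genotype an exact permutation test cannot go below 0.333, so these calls rest on a spread that limma estimates over all genes. The requirement of 4 peaks keeps out promoters that fell below the caller's threshold. With peaks required in 2 of 4 libraries only, and a floor for the missing values, 16 were lower. Promoters with Brd3 peaks in the WT libraries alone enter that fit with their DKO values set at the floor.

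The shift was shared with other promoters. With each library centred on its own median, 2 ribosomal protein promoters (Rpl36 and Rps15) were lower, 1 (Rpl21) was higher, and the median change was -0.12. The DKO libraries also had the lower solved background, and with the pileup set over that background in place of the local one, 1 promoter (Rps27l) was lower after adjustment and 21 were lower and none higher at an unadjusted p under 0.05. The median log2 change was then -0.36, and -0.35 over all genes. The part of depth in the difference was not tested. Leaving out WT replicate 1, WT replicate 2, DKO replicate 1 or DKO replicate 2 gave 9, 13, 8 and 9 lower promoters, of which 8, 13, 8 and 8 were among the 25.

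The largest decrease was at Rpl36, which encodes a large subunit protein. Its Brd3 fold enrichment was 17.4 and 19.6 in WT and 5.55 and 8.06 in DKO, which on the log2 scale is -1.47 (standard error 0.25, adjusted p = 0.00255). Rps15, of the small subunit, had 24.9 and 24.8 in WT and 9.76 and 9.89 in DKO (-1.34, adjusted p = 0.00264). At both genes each DKO library lay far below each WT library. Rps3, whose product also acts in DNA repair, had 23.8 and 18.6 in WT and 8.91 and 10.9 in DKO (-1.09, adjusted p = 0.00873). Rps19, the gene most often mutated in Diamond-Blackfan anaemia, had 16.1 and 17.6 in WT and 6.72 and 10.4 in DKO (-1.01, adjusted p = 0.0142). Rpl30 and Rps14 were lower too, by 1.2 and 0.78 on the log2 scale.

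Other well-studied members did not pass the test. Rps6, the substrate of the S6 kinases, had a Brd3 fold enrichment of 23.1 and 18.9 in WT and 13.9 and 18.9 in DKO (adjusted p = 0.277), so that the groups touched. Rpl5 and Rpl11, which bind Mdm2 when ribosome assembly is disturbed, had log2 changes of -0.41 and -0.47 (adjusted p = 0.211 and 0.16). Rpl32 had 18.9 and 19.9 in WT and 9.60 and 15.7 in DKO (adjusted p = 0.0727). At the other end of the order, Rpl21 had 8.82 and 10.2 in WT and 13.8 and 13.4 in DKO (log2 change 0.52, adjusted p = 0.106), and Rpl8 18.6 and 16 in WT and 20.5 and 20.9 in DKO (0.27, adjusted p = 0.403). Both DKO libraries were above both WT libraries at these genes, although neither passed the test.

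**Figure D2:**
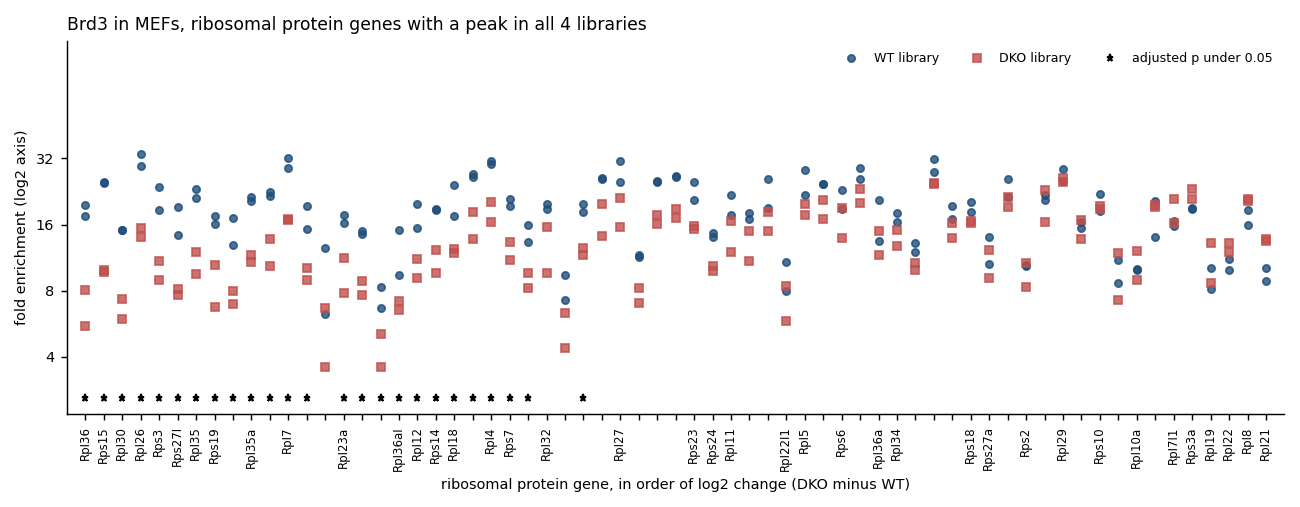
Brd3 fold enrichment in each of the 2 WT and 2 DKO libraries of MEFs (vertical axis, log2 scale) for the 65 ribosomal protein promoters with a peak in all 4 (those named in the text are labelled), ordered by log2 change from Rpl36 to Rpl21, with a star at the 25 with an adjusted p under 0.05. WT points lie above DKO points over most of the plot, and DKO points lie above at Rpl8 and Rpl21.

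A loss of the peak itself was rare. Of 75 promoters with a Brd3 peak in any library, 3 were WT-only, a term for a peak in each WT library but none in DKO (4% against 25.6% of all genes with a peak), and 0 DKO-only, the reverse (0.0197% of all genes). Among these were Rpl13a, with weak WT peaks of 3.63 and 3.78, and Rps19bp1, with 4.71 and 4.17. Rpl3, which encodes the protein that helps to form the peptidyl transferase centre, had H3K27ac and no peak of another antibody in both WT libraries. Rps21, named here after its values were seen, had the same pattern.

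H3K27ac at the same promoters moved less and in both directions. The median fold enrichment was 23.4 and 22.4 in WT and 21.9 and 22.6 in DKO, against 15.2, 14.7, 13.9 and 13.6 over all genes with a peak. All 78 promoters with a peak in every library were tested. Of these, 5 were lower and 5 higher in DKO by limma with Benjamini-Hochberg adjustment, where 6.22% of all 10684 genes tested were lower and 1.68% higher. Without adjustment, 12 were lower and 9 higher at a p under 0.05. Both DKO libraries were below both WT libraries at 28 (37.6% of all genes tested) and above them at 17 (17.4%). The median log2 change was -0.06 and over all genes -0.12. With each library centred on its median it turned to 0.07. Summits lay a median of 160 to 194 bp downstream of the start.

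Rpl8, Rpl7l1, Rpl22l1 and Rps3 were among those that were lower. Rpl8 encodes a large subunit protein at the peptidyl transferase centre. Its H3K27ac fold enrichment was 24.5 and 19.9 in WT and 10.6 and 11.4 in DKO (log2 change -1.01, standard error 0.19, adjusted p = 0.0165). The same promoter did not lose Brd3, as given above. The paralog Rpl7l1 had 19.9 and 22.8 in WT and 9.99 and 13.5 in DKO (-0.88, adjusted p = 0.0279). Rpl22l1, a paralog of Rpl22, had 22.9 and 22.1 in WT and 14 in either DKO library (-0.69, adjusted p = 0.0401).

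Rpl19, Rps19, Rpl13a, Rpl35a and Rps23 were higher, the last pair named after their values were seen. The H3K27ac fold enrichment of Rpl19 was 24.6 and 25.1 in WT and 46.7 and 54.5 in DKO (1.02, standard error 0.18, adjusted p = 0.0141), the largest increase. Rps19 had 24.8 and 21.2 in WT and 42.1 and 39.3 in DKO (0.83, adjusted p = 0.0258), while its Brd3 was lower. Rpl13a, whose introns host small nucleolar RNAs, had 9.56 and 10.3 in WT and 16.3 and 16.4 in DKO (0.72, adjusted p = 0.0351), but its summits lay at -1138 to -1093 bp, outside the window that the peaks reached into. With summits required inside the window Rpl13a was not called, nor were Rps23, Rpl22l1 and Rps3. The windows of Rpl13a also hold the start of Flt3l. The window of Rpl35a also holds the start of Iqcg. At all 5 the WT and DKO libraries did not overlap.

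The acetylation calls depended on the measure and on single libraries. Set over the lowest background, the pileup gave 0 lower and 0 higher by limma, with 5 and 2 at an unadjusted p under 0.05. Centring left 1 lower (Rpl8) and 4 higher. Leaving out WT replicate 1, WT replicate 2, DKO replicate 1 or DKO replicate 2 gave 4, 1, 2 and 2 lower and 3, 5, 1 and 0 higher promoters.

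**Figure D3:**
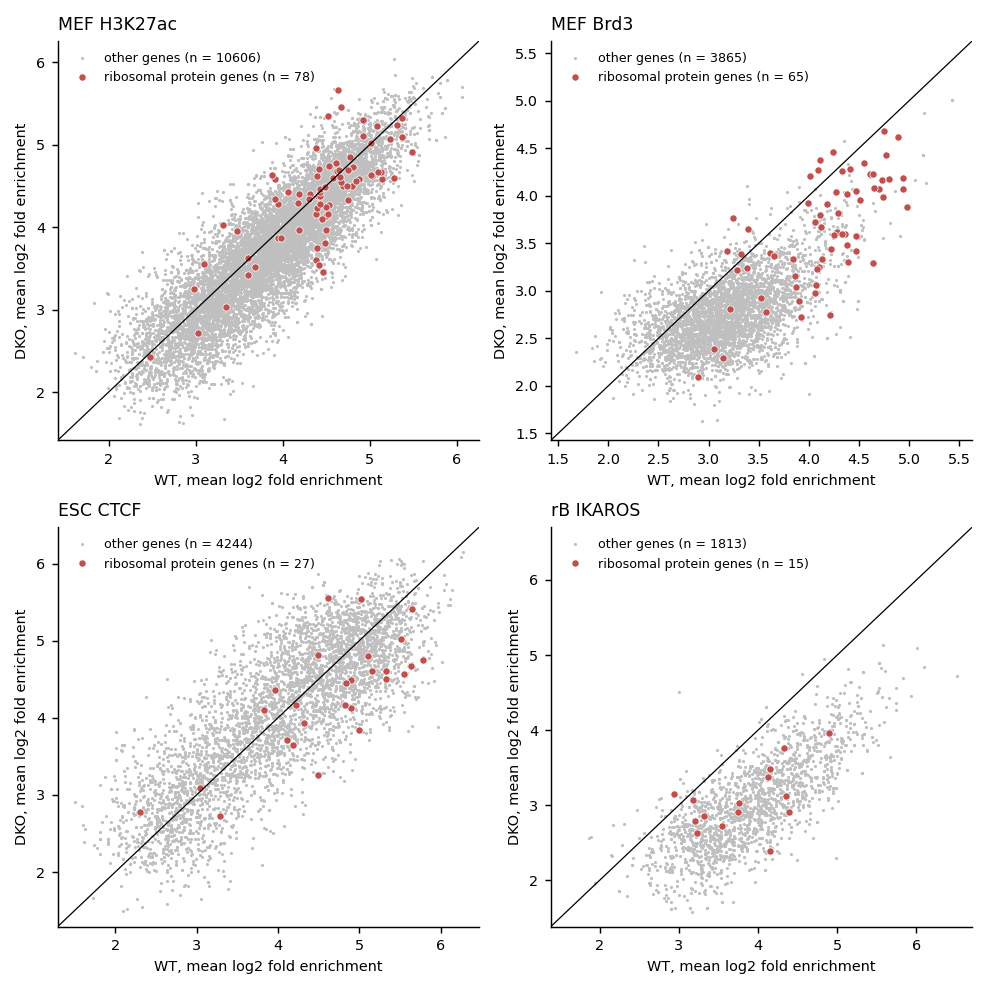
Mean log2 fold enrichment of promoters with a peak in all 4 libraries, WT on the horizontal and DKO on the vertical axis, for H3K27ac and Brd3 in MEFs, CTCF in ESCs and IKAROS in resting B cells; ribosomal protein genes are red (78, 65, 27 and 15 promoters) and other genes grey, with the line of equality. Most ribosomal protein promoters sit toward the high end of the Brd3 cloud, and most lie under the line for Brd3 and IKAROS.

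The 7 paralogs ranged from the promoter with the highest mean H3K27ac of the 81 in WT to promoters without an H3K27ac peak. Rps27l, a gene induced by p53, had that highest mean (43.1 and 46.9 in WT, then 28.7 and 31.8 in DKO, adjusted p = 0.0755), with Rpl4 above it in WT replicate 1 (45.1). Its Brd3 fold enrichment was 19.3 and 14.4 in WT and 7.68 and 8.10 in DKO (-1.08, adjusted p = 0.00894). Rpl36al was also lower for Brd3 (-0.80, adjusted p = 0.0371). Rpl3l, the muscle paralog of Rpl3, had no antibody with peaks in both replicates of either genotype. Rpl39l, known from the testis, had no antibody in both WT libraries, and had H3K27ac of 6.51 and 6.06 in the DKO libraries alone, as the only DKO-only promoter among 79 with any H3K27ac peak (1.27% against 0.653% of all genes with a peak, with 0 WT-only, against 1.44%). The pair of peaks did not overlap, with summits at 41 bp in DKO replicate 1 and at -406 bp in DKO replicate 2. Rpl10l, a retrogene used in male germ cells, had CTCF in both DKO libraries, and no antibody in both WT libraries. It was not DKO-only for CTCF, since a WT library also had a peak.

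CEBPB, a leucine zipper factor of inflammatory and fat cell genes, was at few of these promoters. Rpl10a and Rpl18 kept a peak in all 4 libraries and both were lower in DKO by limma, where 78.2% of all 363 genes tested were lower and 3.03% higher. At Rpl10a the fold enrichment was 21.2 and 24.0 in WT and 6.60 and 8.32 in DKO (-1.61, standard error 0.17, adjusted p = 3.56e-08). Rpl18 had 13.1 and 14.3 in WT and 6.42 and 6.68 in DKO (-1.06, adjusted p = 4.1e-06), from summits at -58 to -32 bp. After centring, Rpl10a alone was lower. Of 8 promoters with any CEBPB peak, 5 were WT-only (62.5% against 42.8% of all genes with a peak) and 0 DKO-only (0.146% of all genes). Of these, Rpl13a had 13.2 and 15.0, Rps23 8.34 and 10.3 and Rps24 6.69 and 7.73. The remaining pair, named after their values were seen, were Rpl15 and Rpl7. The summits lay far from the nearest annotated start at Rpl13a (-932 and -923 bp) and at Rps23 (974 and 961 bp). With lists of equal length, cut to their top peaks, 1 was WT-only.

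In ESCs, CTCF changed in both directions, with more promoters lower than higher. A CTCF peak was present in all 4 libraries at 27 promoters. Of these, 14 were lower and 5 higher in DKO by limma with Benjamini-Hochberg adjustment, where 20.4% of all 4271 genes tested were lower and 23.1% higher. Both DKO libraries were below both WT libraries at 18 (35.5% of all genes tested) and above them at 6 (38.8%). The median log2 change was -0.40, and 0.03 over all genes. Of the large subunit genes 7 of 16 were lower and 5 higher, and of the small subunit genes 6 of 10 were lower and none was higher. The median fold enrichment was 30.6 and 25.4 in WT and 19.1 and 19.2 in DKO, against 16.3, 15.9, 15.7 and 15.5 over all genes with a peak. Summits lay at a median of -112 to -93.5 bp from the start.

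Rpl32 showed the largest CTCF decrease, with a fold enrichment of 26.1 and 19.5 in WT and 9.65 and 9.49 in DKO (-1.24, standard error 0.16, adjusted p = 0.00484). Rps15 had 31.9 and 32.1 in WT and 12.3 and 16.7 in DKO (-1.15, adjusted p = 0.006), from summits at -84 to -61 bp. Rps15 thus was among the members with the largest decreases for both Brd3 in MEFs and CTCF in ESCs. So was Rpl36, whose CTCF fold enrichment was 47.0 and 46.3 in WT and 23.2 and 24.1 in DKO (-0.98, adjusted p = 0.00298). Rpl5 and Rpl11 were lower by 0.83 and 0.77 on the log2 scale (adjusted p = 0.00395 and 0.00484), and Rps19 and Rps14 by 0.56 and 0.54. Rps3a, the strongest CTCF promoter among the members in WT and named for that after its values were seen, had 54.1 and 55.7 in WT and 27.5 and 26.4 in DKO (-1.03, adjusted p = 0.00294).

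Rpl36a led those that were higher, with 25.2 and 23.9 in WT and 44.4 and 49.4 in DKO (0.93, standard error 0.11, adjusted p = 0.00384). Rpl13a had 33.6 and 31.6 in WT and 47.0 and 46.4 in DKO (0.52, adjusted p = 0.0122). Rpl23a and Rpl35, named after their values were seen, had log2 changes of 0.47 and 0.40. WT and DKO values did not overlap at these 4. Rpl29 was the only DKO-only promoter among 31 with any CTCF peak, and none was WT-only (3.23% and 0%, against 4.24% and 1.14% of all genes with a peak).

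The 14 lower promoters stayed lower after centring, when 3 were higher (Rpl13a, Rpl23a and Rpl36a). Leaving out WT replicate 1, WT replicate 2, DKO replicate 1 or DKO replicate 2 gave 7, 13, 12 and 8 lower and 2, 3, 1 and 1 higher promoters. Rpl36a was higher in each of these fits.

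**Figure D4:**
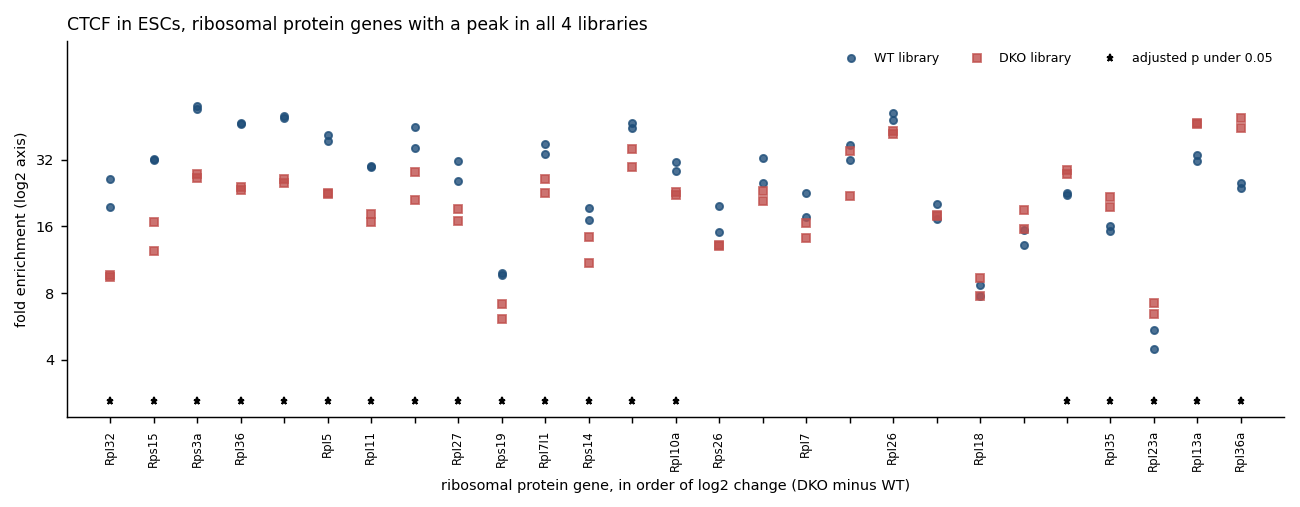
CTCF fold enrichment in the 2 WT and 2 DKO libraries of ESCs (vertical axis, log2 scale) for the 27 ribosomal protein promoters with a peak in all 4 (those named in the text are labelled), ordered by log2 change from Rpl32 to Rpl36a, with a star at the 19 with an adjusted p under 0.05. DKO points lie under WT points at the left, where 14 stars fall, and above them at the right, where 5 fall.

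NANOG, a homeobox factor of pluripotent cells, was more frequent at ribosomal protein promoters in DKO ESCs, with weak peaks. Of 64 promoters with any NANOG peak, 21 were DKO-only and 0 WT-only (32.8% and 0%, against 20.2% and 1.05% of all genes with a peak). These 21 peaks had a median fold enrichment of 4.65 and 4.51 in the DKO libraries, and among them were Rps6, Rps27a, Rps27l, Rpl7l1 and Rpl39l. When each library was held to the same number of top peaks, 9 were DKO-only and 1 WT-only. The median fold enrichment at promoters with a peak was 5.76 and 5.48 in WT and 4.62 and 4.63 in DKO, below the 6.16, 5.92, 5.50 and 5.39 of all genes. Summits were near the start, at a median of -55 to -39 bp.

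NANOG was tested at the 14 promoters with a peak in all 4 libraries. By limma 1 was lower and 2 higher, where 7.31% of all 2981 genes tested were lower and 13.2% higher. The median log2 change was 0.08 for both. Both DKO libraries were below both WT libraries at 4 (26.2% of all genes tested) and above them at 4 (36.9%). Rps10 had 8.69 and 9.73 in WT and 4.38 and 3.92 in DKO (-1.15, adjusted p = 0.00675). Rps7 had 4.79 and 3.43 in WT and 9.61 and 7.34 in DKO (1.05, adjusted p = 0.0176). Rpl22, whose product also acts in T cell development, had 5.26 and 5.15 in WT and 8.26 and 9.0 in DKO (0.73, adjusted p = 0.0278). Rpl32 had 5.66 and 5.47 in WT and 4.36 and 2.95 in DKO (adjusted p = 0.0777), and passed the test when libraries were centred, while Rpl22 did not. Without WT replicate 2, 1 was lower and 0 higher. Without either DKO replicate no member was called, and without WT replicate 1 the calls were Rps10 and Rps7. With a floor for missing values and 2 peaks of 4 required, 18 promoters were higher. The 21 DKO-only promoters enter that fit with both WT values set at the floor, so a higher call there is largely fixed beforehand. The count of 18 therefore adds little to the DKO-only count.

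OCT4 peaks were at more of these promoters in DKO as well. Of 23 promoters with any OCT4 peak, 9 were DKO-only and 0 WT-only (39.1% and 0%, against 31.2% and 0.0323% of all genes with a peak), and the number was 0 with the same number of top peaks in every library. The 9 included Rps3, with 11.4 and 9.43, Rpl27, with 8.5 and 12.6, Rps26, with 8.30 and 8.28, and Rpl34, with 6.85 and 7.73. Rps14, Rps19, Rps27a, Rpl18 and Rpl32 were the others. Rps18 was the only promoter with an OCT4 peak in all 4 libraries, with 6.13 and 5.50 in WT and 10.9 and 17.3 in DKO (1.24, adjusted p = 1.9e-09), where 84.7% of all 596 genes tested were higher and 0.168% lower. The local background solved at Rps18 was 3.56 and 5.36 in WT and 1.29 and 1.89 in DKO, and the pileup was 27, 34, 24 and 49. Over the lowest background of each library, or after centring, Rps18 was not called, and with the same number of top peaks it no longer had 4 peaks and was not tested. Its window also holds the start of Vps52.

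SOX2 and Klf4 were rare at ribosomal protein promoters. SOX2 peaks stood at 5 in all, with fold enrichments of 2.75 to 5.52. Rps9 had 3.39 and 3.64 in both WT libraries and no DKO peak, Rpl18 had 3.97 in DKO replicate 1 and 4.33 in DKO replicate 2, at different annotated starts and without overlap, and no WT peak, and Rps26, Rpl27 and Rps7 had no genotype with both replicates. Of all genes with a SOX2 peak 0.802% were WT-only and 15.5% DKO-only. Klf4 was at 18 in all, and in all 4 libraries at Rpl18, Rps19 and Rpl32. None of the 3 was called by limma, with 1 at an unadjusted p under 0.05 (Rpl32), where 1.34% of all 524 genes tested were lower and 2.1% higher. At Rpl18 the Klf4 fold enrichment was 18 and 15.0 in WT and 17.1 and 16.1 in DKO (adjusted p = 0.963). At Rps19 it was 9.95 and 11.1 in WT and 11.1 and 7.58 in DKO (adjusted p = 0.699). At Rpl32 it was 7.37 and 5.51 in WT and 8.88 and 13.9 in DKO (0.80, adjusted p = 0.132). Rpl12 had Klf4 in the WT libraries only and Rps2 in the DKO libraries only, together with Rpl27 and Rps15, which were named after their values were seen. This made 1 WT-only and 3 DKO-only of 18, against 2.58% and 7.43% of all genes with a peak.

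In resting B cells IKAROS, a zinc finger factor of lymphoid cells, was lower in DKO at most promoters of any kind that could be tested, and the share of ribosomal protein promoters that were lower was near that of all genes. The median fold enrichment at promoters with a peak was 9.73 and 8.58 in WT and 7.22 and 8.04 in DKO, against 9.68, 9.22, 7.54 and 7.39 over all genes. Of 15 promoters with a peak in all 4 libraries, 12 were lower and 0 higher in DKO by limma with Benjamini-Hochberg adjustment, with the same counts at an unadjusted p under 0.05, where 82.1% of all 1828 genes tested were lower and 0.274% higher. Both DKO libraries were below both WT libraries at 13 (90.5% of all genes tested) and above them at 0 (0.821%). The median log2 change was -0.73, and -0.90 over all genes. When libraries were centred on their medians the median of the members turned to 0.15, 1 promoter was lower (Rpl7) and 2 were higher (Rpl30 and Rps27a).

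At Rpl7 the IKAROS fold enrichment was 16.9 and 18.6 in WT and 4.82 and 5.73 in DKO (-1.75, standard error 0.20, adjusted p = 2.74e-05). Rpl4 had 19.7 and 22.4 in WT and 7.12 and 7.93 in DKO (-1.48, adjusted p = 4.54e-05), with summits at -359 to -327 bp, in a window that also holds the start of Zwilch. Rpl32 had 20.3 and 20.5 in WT and 9.65 and 7.89 in DKO (-1.22, adjusted p = 0.000148). At these promoters the DKO values were far under the WT values. By contrast Rpl30 had 8.24 and 9.88 in WT and 7.62 and 9.19 in DKO (-0.11, adjusted p = 0.623). Rps27a, which encodes a ubiquitin fused to a ribosomal protein, had 6.04 and 9.64 in WT and 9.22 and 8.52 in DKO (0.22, adjusted p = 0.388), and was called higher when WT replicate 2 was left out. At both the groups overlapped.

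Of 42 promoters with any IKAROS peak, 11 were WT-only and 0 DKO-only (26.2% and 0%, against 22.6% and 0% of all genes with a peak). They included Rpl22l1 and Rps7, and their median fold enrichment was 7.33 and 6.97 in the WT libraries. With the same number of top peaks in every library 3 were WT-only.

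ETS1, the founding member of the ETS family of factors, was at 35 ribosomal protein promoters in at least 1 library of resting B cells. Of the 35, 14 were WT-only (40% against 34% of all genes with a peak), with Rps6, Rps14, Rpl30 and Rpl7l1 among them, at a median fold enrichment of 5.76 and 5.64. With the same number of top peaks in every library, 1 was WT-only. In the opposite direction Rps23 alone was DKO-only, with 5.20 and 6.08 (2.86% against 0.0887%, or 2 of 2255 genes). Rps23 was also among the promoters with more H3K27ac in DKO MEFs.

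ETS1 stood over an ETS motif at some of these promoters. The motif CCGGAAG was within the searched stretch of 12 of the 24 promoters with ETS1 in both WT libraries (50%) and of 7 of the 46 without a peak in any library (15.2%). For IKAROS the same motif was in 7 of 29 (24.1%) and 10 of 39 (25.6%). Within 100 bp of the ETS1 summit the motif was found at 12 of 27, 13 of 31, 4 of 7 and 3 of 11 ribosomal protein promoters (44.4%, 41.9%, 57.1% and 27.3%), against 34.8%, 34.3%, 35.3% and 37.0% of all promoters with an ETS1 peak. In Rps7 the summits were 14, 7, 13 and 30 bp from the motif that adjoins the pyrimidine run printed above. In Rps6 they were 34 and 54 bp from it in the WT libraries, and no DKO library had a peak.

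Rpl32 was the strongest ETS1 promoter of the members, ranking 5 of 1690, 5 of 1746, 7 of 397 and 7 of 381 promoters with a peak. Its fold enrichment was 47.8 and 46.3 in WT and 21.7 and 20.8 in DKO (-1.15, standard error 0.23, adjusted p = 0.0011). Only Rpl18, Rps7 and Rps19 also kept an ETS1 peak in all 4 libraries. Of these 4, 3 were lower and 0 higher by limma, with the same counts at an unadjusted p under 0.05, where 42.6% of all 251 genes tested were lower and 1.2% higher. Rpl18 had 7.57 and 6.77 in WT and 3.85 and 3.84 in DKO (-0.90, adjusted p = 0.00602), and Rps7 8.29 and 10.8 in WT and 5.64 and 4.63 in DKO (-0.89, adjusted p = 0.00821). Rps19 had 5.36 and 8.5 in WT and 5.05 and 5.92 in DKO (adjusted p = 0.351), and there the groups overlapped. Rpl29 had 8.68 and 10.4 in WT and 4.75 in DKO replicate 1 alone. The median change over all genes was -0.50, and with libraries centred none of the 4 was called by limma (1 at an unadjusted p under 0.05). Without WT replicate 1, Rpl18 was no longer called, without WT replicate 2 Rps7 was not, and without DKO replicate 2 Rps7 was not.

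**Figure D5:**
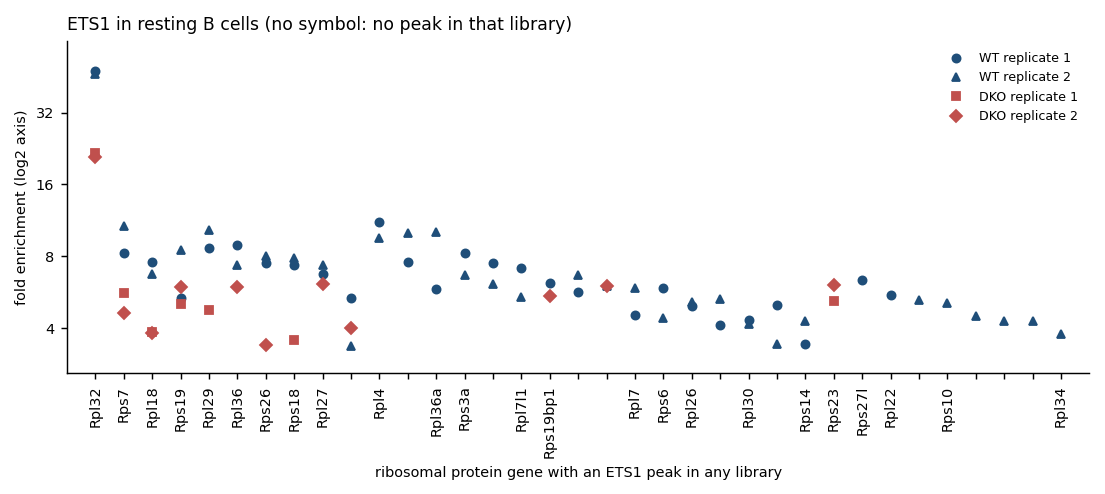
ETS1 fold enrichment in the 2 WT and 2 DKO libraries of resting B cells (vertical axis, log2 scale) for the 35 ribosomal protein promoters with an ETS1 peak in any of them (those named in the text are labelled), where a missing point is a library without a peak. Rpl32 stands alone above 20 in all 4 libraries, most of the others have WT points only, and Rps23 has DKO points only.

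The number of antibodies per promoter ran from 0 to 7 in WT. Counting antibodies with a peak in both WT libraries, 31 promoters had 3, 17 had 2 and 16 had 4, and 3 had 7: Rpl18, Rpl32 and Rps19. In the DKO libraries the same count was 9 for Rpl18 and 8 for Rpl32 and Rps19. OCT4 was added at all of them, and at Rpl18 the count of 9 includes SOX2, whose DKO peaks did not overlap each other. The OCT4 lists were longer in DKO, as given above, and so were those of SOX2 (10324 and 10222 peaks in WT, 16174 and 17144 in DKO). Antibodies were not counted in this way over all genes, so these numbers do not show whether a promoter is unusual. Rpl32 lost fold enrichment of CTCF, IKAROS and ETS1 in different cells, whereas its H3K27ac in MEFs was 30.1 and 30.4 in WT and 36.1 and 32.6 in DKO (adjusted p = 0.572). Of those calls at Rpl32, only that of CTCF was kept after centring. Among all genes tested, 82.1% were lower for IKAROS and 42.6% for ETS1, against 20.4% for CTCF. Rpl18 lies close to Sphk2, and 15 of the 81 windows hold the start of another protein-coding gene, so that a peak there cannot be given to the ribosomal protein gene alone. Without those 15, Brd3 was lower at 19 of 53 tested promoters, CTCF lower at 14 and higher at 4 of 25, and IKAROS lower at 8 of 10.

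Genes of the same pathway that the symbol rule leaves out were read from fixed lists, by the same fits. The 6 other cytosolic ribosomal protein genes include those of the stalk proteins. Rplp2 was lower for Brd3 (-0.68, adjusted p = 0.045), H3K27ac (-0.66, adjusted p = 0.0475) and IKAROS (-0.86, adjusted p = 0.00144). Rplp1 and Rpsa, with Brd3 changes of -0.41 and -0.35 (adjusted p = 0.233 and 0.278), Rplp0, with a CTCF change of 0.07 (adjusted p = 0.784), and Fau, with an H3K27ac change of 0.46 (adjusted p = 0.205), were not called. Rplp0 could not be tested for Brd3, with fold enrichments of 6.70 and 9.67 in WT and no peak in DKO.

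The mitochondrial ribosomal protein genes, which serve the separate ribosome of that organelle, were read in the same way. For Brd3 10 of 44 tested were lower and 0 higher by limma (17 and 1 at an unadjusted p under 0.05), with a median change of -0.44, and for H3K27ac 3 of 75 were lower and 1 higher. CTCF was lower at 6 and higher at 3 of 21, NANOG lower at 3 and higher at 2 of 17, and IKAROS lower at 5 of 6. Of the translation factors and related genes with pyrimidine tracts, such as Eef1a1 and Eef2, 2 of 9 were lower for Brd3, 4 of 4 for IKAROS and 0 of 12 for H3K27ac (2 lower and 0 higher at an unadjusted p under 0.05). Of the ribosome assembly genes, such as Ncl and Fbl, 4 of 9 were lower for Brd3, and 1 was lower and 2 were higher of 14 for H3K27ac. Of all genes tested, 24.6% were lower for Brd3, 6.22% for H3K27ac, 20.4% for CTCF, 7.31% for NANOG and 82.1% for IKAROS, and 0.382%, 1.68%, 23.1%, 13.2% and 0.274% were higher. No count of these lists was tested against the others or against all genes.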

How the data were processed

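Narrow peaks of 16 ChIP-seq antibodies were read from 64 lists, 1 per library, with 2 replicates per genotype that the series design calls biological. Per the submitters' processing notes and the methods, the authors demultiplexed reads with bcl2fastq 1.8.4, trimmed adapters with cutadapt 1.16, aligned to mm9 with BWA, and called peaks with MACS2 2.1.1.20160309 against input, so that the strength of the input bears on every value. The authors deposited, for each peak, a fold enrichment (a ratio of pileup to local background at the summit), the −log10 p and the −log10 q, a score of 10 times the −log10 q, and a summit offset. The lowest deposited −log10 q in any list was 2.00. Input libraries were not analysed here, and read depth is not held in the lists.

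Peaks were assigned to every protein-coding gene of GENCODE vM1 with a transcript start within 1000 bp, and a gene took the strongest peak. Log2 fold enrichment of genes with a peak in all 4 libraries was compared between genotypes with limma 3.58.1 in R 4.3.3, for antibodies with at least 100 such genes, without a replicate block, with Benjamini-Hochberg adjustment over all genes tested and a threshold of 0.05. Fits covered 10 antibodies. p300, H3K27me3, H1, IRF8, PAX5 and OCT2 had fewer than 100 such genes. Pileup and background were solved from fold enrichment and −log10 p in lists where at least 85% of pileups came out whole within 0.0005 in −log10 p. Whether same-numbered replicates deviate together was checked from deviations from the genotype means. Tested on simulated data, log2 changes of 1 and 2 were recovered at 40% and 86% of changed genes for Brd3 (3930 genes), at 21% and 80% for H3K27ac (10684 genes) and at 72% and 91% for CTCF (4271 genes). Motifs were searched in the mm9 genome with pysam 0.24.0. Python 3.11.15, numpy 2.4.6, pandas 2.3.3 and matplotlib 3.10.9 were used.

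The genes, the lists of related genes and the tests were chosen with earlier results of these data known. Named were a short list of well-studied members, the paralogs, the 6 other cytosolic ribosomal protein genes, the 2 lowest and 2 highest log2 changes for antibodies with at least 10 members tested, and up to 5 members by number of libraries and then mean −log10 q for the rest. Other names are marked where they occur. Alternatives covered the window, a stricter −log10 q of 4, summits inside the window, equal numbers of top peaks, centring, a floor for missing peaks, pileup over the lowest background, the replicate block and each replicate left out. A few of the genes and 1 promoter sequence are not reported here.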

Additional observations from a re-analysis of the deposited data

How the results depend on the processing

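Of 190 counts of members under other settings, 151 stayed within 1.5 times the reported count, and of 72 counts with a replicate left out, 49 did. With each library centred on its median, there were 1 lower and 4 higher for H3K27ac, 2 lower and 1 higher for Brd3, 1 lower for CEBPB, 2 lower and 1 higher for NANOG, 14 lower and 3 higher for CTCF, 1 lower and 2 higher for IKAROS, and 0 in either direction for OCT4 and ETS1. With a peak required in 2 of 4 libraries and a floor for the rest, there were 1 lower and 3 higher for H3K27ac, 16 lower for Brd3, 7 lower for CEBPB, 1 lower and 18 higher for NANOG, 10 higher for OCT4, 11 lower and 3 higher for CTCF, 21 lower for IKAROS, and 21 lower and 1 higher for ETS1. More promoters enter under that floor by construction. WT-only and DKO-only promoters enter with the other genotype set at the floor. Their calls are largely fixed beforehand and add little to the WT-only and DKO-only counts. Pileup over the lowest background gave 0 lower and 0 higher for H3K27ac, 1 lower for Brd3 and 0 higher for OCT4. Peaks with summits inside the window gave 3 lower and 3 higher for H3K27ac. The causes of the other shifts were not tested.

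Same-numbered replicates did not deviate together, with correlations of -0.041 to 0.087 for 9 antibodies and -0.117 for ETS1, so the numbers were not taken to pair samples. With a replicate block H3K27ac had 3 lower and 2 higher, Brd3 28 lower, CTCF 14 lower and 4 higher, IKAROS 11 lower and ETS1 0 lower, and the counts of CEBPB, NANOG, OCT4 and Klf4 did not move. With the ETS1 numbers crossed in the replicate block, chosen after seeing the data, 3 were lower.

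Leaving out each replicate in turn gave 1 to 4 lower and 0 to 5 higher for H3K27ac, 8 to 13 lower for Brd3, 0 to 1 lower and 0 to 1 higher for NANOG, 7 to 13 lower and 1 to 3 higher for CTCF, and 0 to 1 higher for IKAROS.

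Keeping the same number of top peaks in every library left 0 WT-only members for Brd3, 1 for CEBPB, 1 for NANOG, 3 for IKAROS and 1 for ETS1, and 9 DKO-only members for NANOG, 0 for OCT4 and 0 for SOX2. A window of 500 bp left 3 WT-only members for CEBPB. The number of peaks per list, and the unknown depth of the CEBPB, NANOG and CTCF lists, limit what a missing peak shows.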
